A study of Rattus norvegicus with 4 samples.

Results

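The genes described here encode the proteins that hold, dock and fuse synaptic vesicles: the SNARE genes Snap25, Stx1a, Vamp1 and Vamp2, the vesicle membrane gene Syp, the synapsin genes Syn1 and Syn2, and the β-synuclein gene Sncb. They were chosen by name, as all probe sets (groups of short probes against 1 transcript) whose only gene symbol in the platform annotation was one of these 8. The rule found 11 of the 1322 probe sets on the array, covering 6 of the 720 genes with a symbol: 4 for Snap25, 3 for Syn2, and 1 each for Stx1a, Syp, Syn1 and Sncb. No probe set bore the symbol Vamp1 or Vamp2, and both genes are not analysed here.

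The KCl cultures were primary neurons from rat cortex, prepared at embryonic day 17, grown for 14 days in Neurobasal medium with B27, and then given 25 mM KCl for 4 h. The control cultures shared the same origin, age and medium and received phosphate-buffered saline for 4 h. Each group had 2 Affymetrix arrays, named KCl 1, KCl 2, control 1 and control 2. The sample descriptions call all 4 arrays unstimulated, against the titles and treatment protocols, and the labels do not tell whether arrays of 1 group are separate cultures. The p-values therefore reflect the spread between arrays alone, which may be technical.

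At a presynaptic terminal, vesicles filled with transmitter are tethered by synapsins, docked at the membrane, and fused with it when calcium enters. Fusion is driven by a bundle of SNARE proteins, in which Snap25 and syntaxin 1 sit on the plasma membrane and a VAMP (synaptobrevin) on the vesicle. High potassium outside the cell depolarizes neurons and lets calcium in, which triggers release and also signals to the nucleus, and the comparison asks which transcripts differ after 4 h of it.

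After KCl the log2 changes of the vesicle genes differed in sign, and whether the genes differed from each other was not tested. Snap25, which encodes a plasma-membrane SNARE, was called higher on 1 of its 4 probe sets, by 1.35-fold, and Sncb, whose product binds vesicle membranes and belongs to the synuclein family, was called lower by 1.60-fold. The other 9 probe sets did not pass, and neither call was made under every alternative processing described below. Of all 11, 4 had a positive log2 change, all of them of Snap25, and 7 a negative one, from the 5 other genes. A probe set is called here when its adjusted p from limma (a linear model with variances shared across probe sets; Benjamini-Hochberg over 947 tested probe sets) was below 0.05. All 11 probe sets passed the filter on dim values. The 2 calls among 11 compare with 102 calls among 947 probe sets (10.8%), of which 52 were higher (5.49%) and 50 lower (5.28%).

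The annotated promoters of genes with negative changes are shown for Sncb, the gene called lower, and for Syn1 and Syp, to set them side by side with the elements that activity-regulated factors are known to bind. Each is the 250 bases before the gene's start in RefSeq's GRCr8 rat assembly, written 5′ to 3′ on the gene's strand. Of the 6 measured genes, 5 had an entry, and Snap25 had none. Capitals mark letters of the cAMP response element TGACGTCA, which CREB binds, of its core TGACG, of the AP-1 element TGANTCA, of the TATA box TATAAA and of the EGR element GCGNGGGCG, on either strand.
Sncb, chr17:9851684-9851933, plus strand: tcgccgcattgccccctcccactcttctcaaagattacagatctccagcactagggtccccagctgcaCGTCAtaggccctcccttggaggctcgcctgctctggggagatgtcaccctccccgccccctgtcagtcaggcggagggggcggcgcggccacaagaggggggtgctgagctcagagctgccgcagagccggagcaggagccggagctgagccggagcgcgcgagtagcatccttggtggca
Syn1, chrX:3725495-3725744, plus strand: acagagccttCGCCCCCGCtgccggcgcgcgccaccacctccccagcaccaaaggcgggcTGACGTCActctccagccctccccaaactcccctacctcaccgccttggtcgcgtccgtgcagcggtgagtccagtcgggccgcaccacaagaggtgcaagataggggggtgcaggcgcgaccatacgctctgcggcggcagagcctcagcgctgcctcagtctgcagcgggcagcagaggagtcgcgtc
Syp, chrX:17536450-17536699, minus strand: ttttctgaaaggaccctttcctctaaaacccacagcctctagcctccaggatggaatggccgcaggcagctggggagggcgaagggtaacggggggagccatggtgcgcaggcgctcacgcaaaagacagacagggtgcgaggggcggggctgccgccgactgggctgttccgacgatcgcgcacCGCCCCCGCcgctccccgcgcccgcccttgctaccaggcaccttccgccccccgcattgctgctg
The full element TGACGTCA stood once in the Syn1 window, 190 to 183 bases before the start, and in none of the windows of Sncb, Syp, Syn2 and Stx1a; 1.59% of 33469 rat promoter windows of this length hold it. The Sncb window held the core TGACG once, on the opposite strand and 182 to 178 bases before the start, as 18.2% of all windows do; in Syn1 the cores on both strands overlap within the full element. The EGR element stood once in each of the Syn1, Syp and Syn2 windows and not in those of Sncb and Stx1a, against 4.29% of all windows. It can overlap the GC box GGGCGG, found in 30.5%. Both elements are rich in G and C, and the 5 member windows had 66.8% to 69.6% G and C, against a median of 51.2% over all windows. The AP-1 element (6.34% of all windows) and the TATA box (12.9%) were not in the letters of these 5 windows. These matches describe the sequence and are not shown to be sites of binding.

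**Figure D1:**
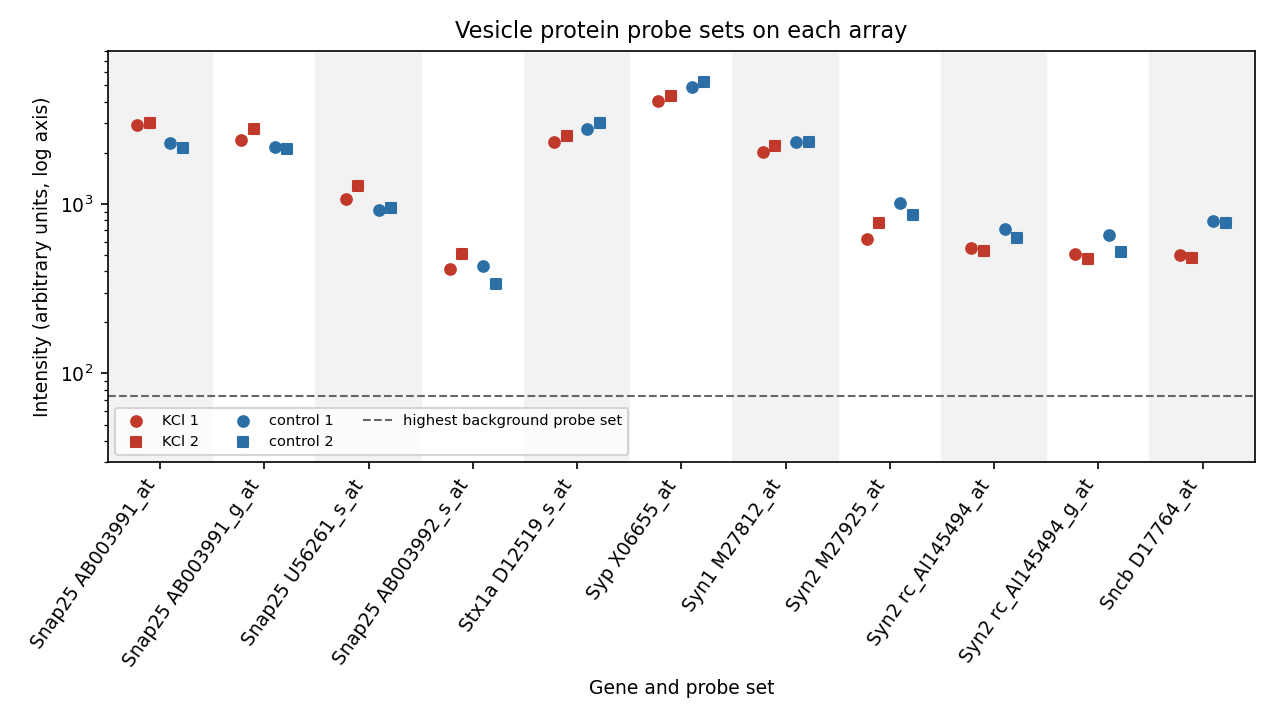
Intensity of the 11 probe sets on each array (log axis, arbitrary units), KCl arrays in red and control arrays in blue, circles for replicate 1 and squares for replicate 2. The dashed line is the highest background value, 73.7; all points lie above it, and the Snap25 probe set AB003992_s_at has overlapping groups.

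All member values stood clear of background. The lowest of the 44 member intensities was 335.8 (Snap25 AB003992_s_at on control 2), whereas the highest value among 19 probe sets for bacterial and yeast transcripts was 73.7. Brightness depends on the probes as well as on the transcript, so levels are compared only within a probe set. Snap25 itself shows how far this goes: the means of its brightest and dimmest probe sets differed 6.49-fold on the KCl arrays and 5.76-fold on the control arrays.

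Among the plasma-membrane SNAREs, the Snap25 probe set AB003991_at read 2933.3 on KCl 1 and 3010.8 on KCl 2, against 2273.2 on control 1 and 2131.7 on control 2. Both KCl arrays were above both control arrays, with means of 2972 ± 55 for KCl and 2202 ± 100 for control (SD, n = 2 arrays each). The log2 change was 0.43 ± 0.10 (SE; limma adjusted p = 0.032; 95% interval 0.20 to 0.67). This call was not made with a replicate block (adjusted p = 0.090), with dim probe sets kept (0.051), without the intensity trend in the variance (0.20), without control 1 (0.17) or without control 2 (0.23), nor for the mean of all 4 Snap25 probe sets (log2 change 0.32 ± 0.12, adjusted p = 0.13).

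The other 3 Snap25 probe sets pointed the same way by smaller amounts and did not pass. AB003991_g_at, made against the same transcript record as AB003991_at, read 2382.5 and 2772.3 on the KCl arrays against 2170.3 and 2107.4 on the control arrays, without overlap (log2 change 0.27 ± 0.11; limma adjusted p = 0.19). U56261_s_at read 1066.9 and 1279.3 on the KCl arrays against 925.7 and 949.8 on the control arrays, again without overlap (0.32 ± 0.13; limma adjusted p = 0.17). AB003992_s_at, the dimmest, read 411.4 and 504.2 on the KCl arrays against 429.3 and 335.8 on the control arrays. There KCl 1 lay below control 1, and the log2 change of 0.26 ± 0.18 had an adjusted p of 0.41 (limma). All 4 probe sets were brighter on KCl 2 than on KCl 1. The ending _s_at marks Affymetrix probe sets that may detect several related transcripts.

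Whether the probe sets of a gene moved by unlike amounts was tested on the log2 ratio of 2 probe sets within each array, where array scaling cancels. None of the 6 Snap25 pairs passed, and their differences in log2 change ran from −0.05 to 0.17. The largest difference in size was between AB003991_at and AB003992_s_at, at 0.17 with a 95% interval of −0.45 to 0.79, so differences as large as the change itself are within the error. The ratio of AB003991_at to AB003991_g_at was 1.23 and 1.09 on the KCl arrays against 1.05 and 1.01 on the control arrays, with a difference of 0.17 ± 0.15 (SE; limma adjusted p = 0.72). Across the array 0 of 418 same-gene pairs passed (0%), with 48 at an unadjusted p below 0.05 in limma and 46 by an ordinary t statistic; among the 9 member pairs both counts were 0. The median size of the difference was 0.12 in the 9 member pairs and 0.28 in all 418. The 9 come from Snap25 and Syn2 alone, at intensities of 335.8 or more, whereas probe sets with any mean above 33.25 could enter the 418. These medians are therefore not of probe sets of like brightness. The variance trend in this fit followed the mean log2 ratio, not an intensity. With the variance following the intensity of the dimmer probe set instead, 2 of the 418 pairs passed, none of them a member pair. The SE for AB003991_at against AB003991_g_at was then 0.10 (limma adjusted p = 0.53).

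**Figure D2:**
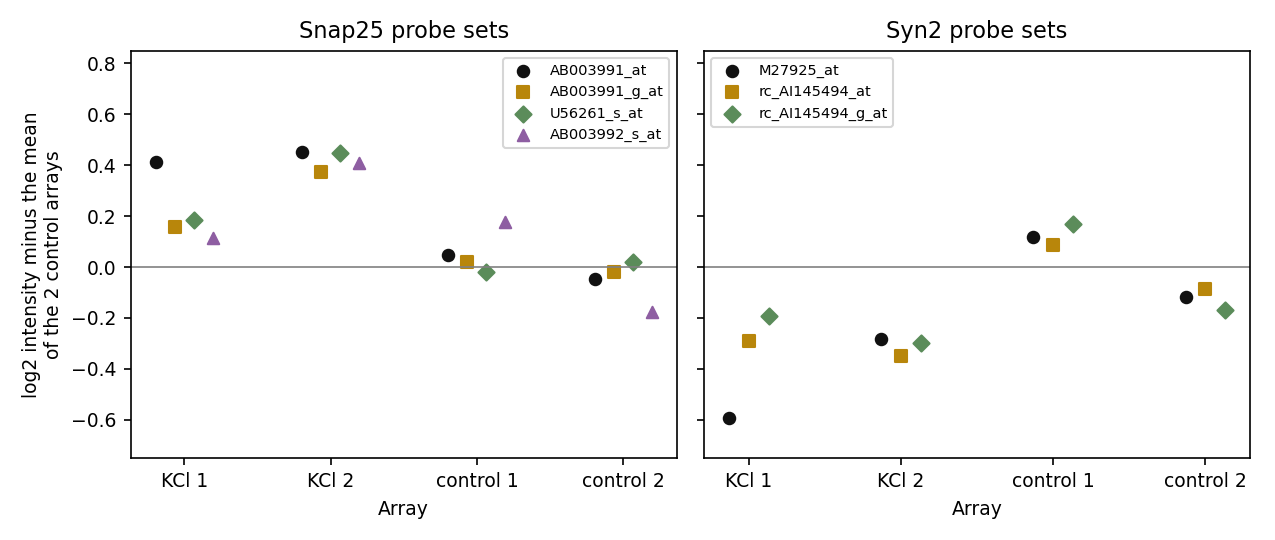
Log2 intensity of each Snap25 (left) and Syn2 (right) probe set on each array, minus the mean of its 2 control arrays (one marker per probe set, 0 is the control mean). All Snap25 points of KCl arrays lie above 0 and all Syn2 points of KCl arrays below 0; Snap25 AB003992_s_at on KCl 1 lies under its control 1 value.

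Stx1a, which encodes syntaxin 1A, the other plasma-membrane SNARE, had negative changes that did not pass. Its probe set D12519_s_at read 2327.5 and 2504.3 on the KCl arrays, against 2749.6 and 2980 on the control arrays. The groups did not overlap, and the log2 change was −0.25 ± 0.11 (SE; limma adjusted p = 0.19; 95% interval −0.49 to −0.000578). The ratio of Snap25 (AB003991_at) to Stx1a within an array was 1.26 on KCl 1 and 1.20 on KCl 2, against 0.83 on control 1 and 0.72 on control 2. The ratio of Snap25 to each of Syp, Syn1, Syn2 and Sncb, by brightest probe set, was likewise above both control arrays on both KCl arrays. With AB003991_at higher and the probe sets of the other genes lower, each without overlap, such ratios had to separate. They restate those values, add no support and carry no test here.

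Syp encodes synaptophysin, an abundant membrane protein of synaptic vesicles that binds synaptobrevin. Its probe set X06655_at was the brightest of the 11 and read 4018.5 and 4308.3 on the KCl arrays, against 4911.4 and 5260 on the control arrays. Both KCl arrays were lower, and the log2 change came to −0.29 ± 0.10 (SE; limma adjusted p = 0.12; 95% interval −0.52 to −0.06). With quantile normalization it was called lower (−0.30 ± 0.07; limma adjusted p = 0.041).

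The synapsins coat vesicles and link them to each other and to actin until phosphorylation frees them. Syn1, on M27812_at, read 2024.9 and 2189.3 on the KCl arrays, against 2303.1 and 2305.9 on the control arrays. The control pair was nearly identical and both KCl values lay below it; the log2 change came to −0.13 ± 0.11 (SE; limma adjusted p = 0.49; 95% interval −0.37 to 0.11). The median log2 change over all 947 probe sets was −0.10, so Syn1 lay close to the middle of the array.

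Syn2 had 3 probe sets, all with negative changes and none called. M27925_at read 617.5 and 766.4 on the KCl arrays, against 1011.7 and 859.5 on the control arrays (log2 change −0.44 ± 0.15; limma adjusted p = 0.12). Without KCl 2 it was called lower (−0.59; limma adjusted p = 0.0045). rc_AI145494_at read 547.7 and 525.5 on the KCl arrays, against 709.7 and 630.9 on the control arrays (−0.32 ± 0.14; limma adjusted p = 0.18). rc_AI145494_g_at read 509.1 and 472.7 on the KCl arrays, against 654 and 517.3 on the control arrays (−0.25 ± 0.16; limma adjusted p = 0.37). No KCl value of Syn2 reached a control value of the same probe set, and none of the 3 pairs differed by the ratio test, with differences in log2 change of −0.19 to −0.07.

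Sncb had the smallest p of the 11 probe sets. Its probe set D17764_at read 500.8 on KCl 1 and 479.3 on KCl 2, against 794.3 on control 1 and 769.9 on control 2. The arrays of a group lay close together, with means of 490 ± 15 for KCl and 782 ± 17 for control (SD, n = 2 arrays each), and the groups were far apart. The log2 change was −0.67 ± 0.13 (SE; limma adjusted p = 0.012; 95% interval −0.97 to −0.38). The call was not made without control 1 (log2 change −0.65), without control 2 (−0.70) or without the intensity trend (limma adjusted p = 0.11). The log2 change lay between −0.71 and −0.61 in all 12 alternatives, though other filters, other variance models and the replicate block cannot move it. Sncg, the γ-synuclein gene, had only values within background.

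**Figure D3:**
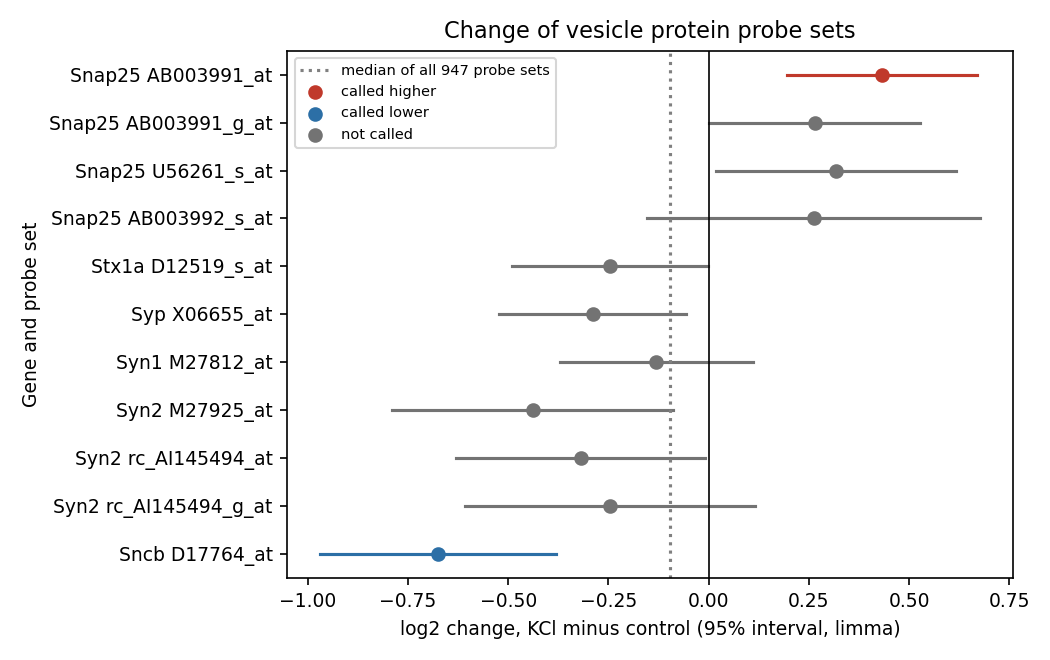
Log2 change of each probe set, KCl minus control, with its 95% interval from limma; red was called higher, blue lower and grey not called, and the dotted line is the median of all tested probe sets, −0.10. Points of Snap25 lie right of 0 and those of the other 5 genes left of it.

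Over the 11 probe sets, 10 had groups that did not overlap, beside 58% of all 947 probe sets. They were 3 higher, beside 21.4% of all, and 7 lower, beside 36.5%. An unadjusted p below 0.05 was reached by 8 of 11 in limma, beside 25.6% of all. With an ordinary t statistic it was reached by 2 of 11, beside 157 of all 947. The median log2 change was −0.25, against −0.10 over all probe sets, and the median size of the change was 0.29 in both. The median SE was 0.13 for the members and 0.21 for all.

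The patterns most like those of the called probe sets were sought among the other 852 tested probe sets with 1 symbol, by the root mean square distance over the 4 arrays between log2 intensities centred on their own mean. For Snap25 AB003991_at the nearest were Syngr1, Cit and Cxcl6, at distances of 0.051, 0.052 and 0.060, against a median of 0.37, and none of these 3 passed. For Sncb the nearest were Grm7 (D16817_g_at), Arrb2 and Apex1, at 0.031, 0.031 and 0.066, against a median of 0.36. These 3 were called lower, with log2 changes of −0.69, −0.67 and −0.56. With 4 arrays such distances reflect the size of the change together with the spread within each group, and they carry no test.

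Other genes of the vesicle cycle are given by count. Of a list of 88, 32 were on the array by symbol and 26 were tested, each through its brightest probe set; 3 were called lower and 0 higher, where 5.09% of 570 genes were called in each direction. Positive log2 changes numbered 5 and negative ones 21, with a median of −0.18. These counts include genes with all values within background: Snap23 among the positive, and Synj2, Syt6 and Syt7 among the negative. Over all 570 genes 229 were positive and 341 negative, with a median of −0.09. For the direction with no call, 1 gene (Syt4) was higher at an unadjusted p below 0.05 in limma. By an ordinary t statistic it was 1 other gene, Syngr1. Syt11, a synaptotagmin of vesicle membranes, read 403 and 456.9 on the KCl arrays against 665.1 and 867.5 on the control arrays (−0.82 ± 0.17; limma adjusted p = 0.015). Nrxn2, which encodes a presynaptic adhesion protein, read 1895.4 and 2167.4 on the KCl arrays against 3028.1 and 3083.6 on the control arrays (M96376_at, −0.59 ± 0.11; limma adjusted p = 0.011), and its other tested probe set had −0.07 ± 0.12. Slc32a1, the transporter that loads GABA into vesicles, read 514.6 and 600.6 on the KCl arrays against 1683.2 and 1646.1 on the control arrays. These values are of AF030253_at, with −1.58 ± 0.13 (limma adjusted p = 1.0e-04). The other tested Slc32a1 probe set had −1.09 ± 0.42 and was not called (limma adjusted p = 0.15). Syt11 was not called with quantile normalization, none of these 3 was called without control 1 or without control 2, and 5 genes of the list were called lower without KCl 2.

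**Figure D4:**
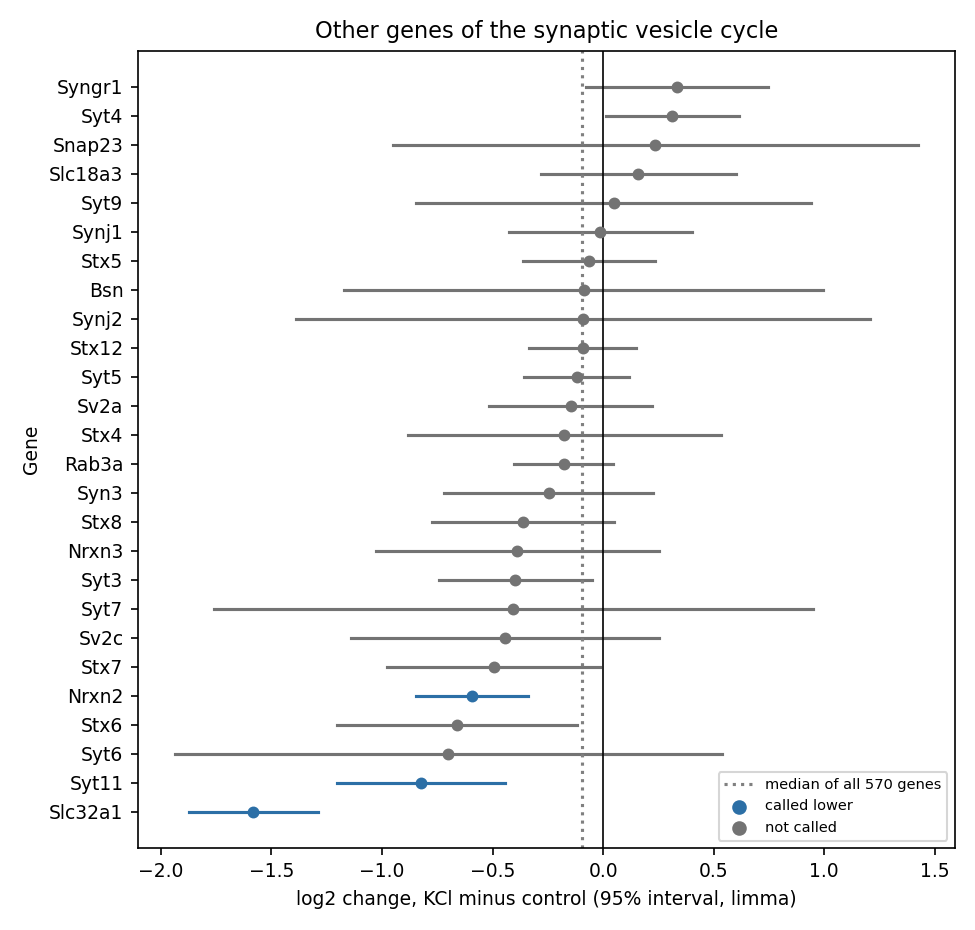
Log2 change, KCl minus control, of 26 other vesicle-cycle genes by their brightest probe set, with 95% intervals from limma; blue was called lower and grey not called, and the dotted line is the median of all tested genes, −0.09. The 3 called genes are Slc32a1, Syt11 and Nrxn2, and 5 genes lie right of 0.

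Relatives of the members within that list were not called. Of the syntaxins, which act at different membranes of the cell, Stx6 and Stx7, both of the endosomal system, had log2 changes of −0.66 ± 0.24 and −0.50 ± 0.21 (limma adjusted p = 0.13 and 0.18), and Stx8 −0.36 ± 0.18. Stx4, Stx5 and Stx12 had −0.18 ± 0.31, −0.06 ± 0.13 and −0.09 ± 0.11. The less bright probe sets of Stx5, Stx8 and Stx12 had −0.39 ± 0.17, −0.16 ± 0.23 and −0.13 ± 0.17, and of these only that of Stx5 had groups that did not overlap. Stx7 read 1039.3 on KCl 1 and 1715.6 on KCl 2, against 2003.9 and 1767.5 on the control arrays, so KCl 1 alone lay far below. Snap23, the relative of Snap25 found in most cell types, had values within background, and Syn3 had −0.25 ± 0.21. Rab3a, the vesicle GTPase, had −0.18 ± 0.10 and Sv2a, a vesicle glycoprotein, −0.15 ± 0.16. Syt4, a synaptotagmin known to be induced by activity, was called higher on its less bright probe set (U14398_at, 0.44 ± 0.12; limma adjusted p = 0.047) and had 0.31 ± 0.13 on the brighter one (limma adjusted p = 0.18).

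The arrays as a whole bear on these values as follows. Their 2% trimmed means lay between 502.0 and 502.4. Fos, an immediate-early gene, had log2 changes of 3.85 to 4.53 on its 3 probe sets, Nr4a1 2.82 and 3.31, and Junb 2.99, all called higher, which checks the labels of the KCl arrays. Of 10 tested neuron markers (Map2, Gap43 and others, no member among them), each by its brightest probe set, 0 were called. For these, 0 had an unadjusted p below 0.05 in limma or by an ordinary t statistic, and the median log2 change was 0.00. Camk2a among them had only values within background. Of less bright probe sets, Nefl M25638_s_at had −0.31 ± 0.13 and Map2 X17682_s_at 0.68 ± 0.33, not called (limma adjusted p = 0.18 and 0.23). The summed intensity of the 10 was 41903 to 45452 on the KCl arrays and 42182 to 46428 on the control arrays. Of 7 tested astrocyte markers 6 were called higher (5.09% of all genes were). Intensities summed over the 7 were 9974 to 12551 on the KCl arrays and 5220 to 5484 on the control arrays. Apoe alone gave 6925.2 and 5196 on KCl 1 and KCl 2, and 2700.2 and 2297.8 on control 1 and control 2. Of 4 inhibitory neuron markers 3 were called lower (Gad1, Slc32a1 and Sst). Npy went the other way and was not called (log2 change 0.23 ± 0.16, limma adjusted p = 0.41). It read 613.6 and 804.8 on the KCl arrays against 602.2 and 597.5 on the control arrays. The sums over the 4 were 3094 to 3702 on the KCl arrays and 8374 to 8893 on the control arrays. Each such sum gives most weight to its brightest probe set: Mapt for neurons, Apoe for astrocytes and Sst for inhibitory neurons. None of 5 oligodendrocyte and 2 microglial markers was called. None of these 7 had an unadjusted p below 0.05 in limma or by an ordinary t statistic. However, the microglial markers Ccl2 and Itgam and the oligodendrocyte markers Mbp, Mog and Pdgfra had only values within background (up to 73.7). For them the lack of a call does not tell whether these cells changed. Of endothelial and fibroblast markers only Vcam1 was tested, and it was not called (limma adjusted p = 0.14). It read 129.2 and 131 on the KCl arrays against 76.9 and 80.9 on the control arrays. The 3′ to 5′ ratio of the hexokinase control probe sets, a sign of RNA integrity, was 2.49 and 2.67 on the KCl arrays and 2.25 and 2.00 on the control arrays. Those of Gapdh (1.19 and 1.17 on the KCl arrays, 1.17 and 1.23 on the control arrays) and β-actin (1.08 and 1.08 on the KCl arrays, 1.08 and 1.12 on the control arrays) had overlapping groups. The part of these differences in the changes of Snap25, Sncb and the vesicle list was not tested. In such bulk cultures, fewer cells of a type and less RNA per cell cannot be told apart.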

How the data were processed

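Per the labels' protocols, biotin-labelled cRNA from 5 µg of total RNA was hybridized to 1-colour Affymetrix arrays. The authors deposited 1 linear intensity per probe set; how probes were combined and to which target arrays were scaled is not given in the sources used here. Nearly equal trimmed means show that the authors had brought the arrays to 1 level, so the values were used as deposited and taken to log2. Of 1322 probe sets, 59 Affymetrix controls were left out, and of the other 1263 (1137 with 1 platform symbol, 8 with several, 118 with none) the dimmest 25% by mean intensity (316), leaving 947. KCl was compared with control in limma 3.58.1 (R 4.3.3; lmFit, eBayes with an intensity trend, two-sided, Benjamini-Hochberg over all 947, called at 0.05). At this size (2 against 2) an exact two-sided permutation test cannot go below p = 0.33, and the number of arrays limits the precision. Same-gene probe set pairs were fitted with the same settings on log2 ratios over 418 pairs. The trend there followed the mean log2 ratio, which is not an intensity. Lists entered by 1 probe set a gene, the brightest. The members, lists and rule for named genes (all member probe sets, list genes that passed, relatives of the members, the 3 nearest patterns and Fos, Nr4a1 and Junb) were chosen with earlier results of these data known. Alternatives were quantile normalization, median centring, a pseudocount of 16, other filters on dim probe sets, other variance models, a replicate block, leaving out each array and gene means.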

Additional observations from a re-analysis of the deposited data

How the results depend on the processing

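No log2 change of the 11 probe sets changed sign in any of the 12 alternatives, but most of these could not reverse it. Other filters, other variance models and the replicate block leave the log2 change as it is. Where groups do not overlap, neither a pseudocount nor leaving out an array can reverse the sign. The limit throughout is 2 arrays per group. The 1 member called higher, Snap25, gave 0 calls with dim probe sets kept, without the intensity trend, with an ordinary t statistic and with a replicate block, and 0 to 1 with arrays left out. The 1 called lower, Sncb, gave 0 without the trend and with an ordinary t statistic, 2 with quantile normalization (with Syp), and 0 to 2 with arrays left out, 2 without KCl 2 (with Syn2). Over all probe sets, 52 higher calls became 18 without the trend, 0 with an ordinary t statistic and 10 to 72 with arrays left out. The 50 lower calls became 32 with quantile normalization, 33 with dim probe sets kept, 3 without the trend, 0 with an ordinary t statistic, 15 with a replicate block and 1 to 106 with arrays left out. Lower calls of the vesicle list (3) became 1 without the trend, 0 with an ordinary t statistic and 0 to 5 with arrays left out. Astrocyte marker calls (6) became 0 without the trend and with an ordinary t statistic, 3 with a replicate block and 0 to 6 with arrays left out. Same-gene pairs called (0) became 4 with quantile normalization, 2 with a pseudocount, 3 with the dimmest 50% left out and, in an alternative chosen after seeing the data that let the variance follow the dimmer probe set, 2; none of these was a member pair. The replicate numbers are not shown to pair the arrays: deviations of same-numbered arrays from their group means had a correlation of −0.03, and the block left 35 higher and 15 lower calls, among them Sncb but not Snap25. Without an array of one group, the spread comes from the other group's pair alone and the lone array is assumed to vary like it. The cause of these moves was not tested.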

Other observations

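Some relatives of the vesicle genes were too dim to be tested and stayed within background (up to 73.7) on all 4 arrays. Stx3, a plasma-membrane syntaxin, read 31.4 and 27.7 on the KCl arrays against 11.4 and 10.2 on the control arrays. Stxbp2, a syntaxin-binding protein, read 49.7 and 43.4 on the KCl arrays against 15.7 and 18.3 on the control arrays on U20283_at, and 22.4 and 21.4 on the KCl arrays against 15.4 and 24.5 on the control arrays on its other probe set, where the groups overlapped. Sncg, the γ-synuclein gene, read 7.9 and 8.7 on the KCl arrays against 9.8 and 9.2 on the control arrays.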
